A study of Homo sapiens with 6 samples.

Results

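The genes for the subunits of the human proteasome and its dedicated cofactors were followed through 6 libraries of crosslinked RNA from HEK293 cells, a line derived from embryonic kidney. The members are the protein-coding genes of the GENCODE annotation on hg19 whose symbol is PSMA, PSMB, PSMC, PSMD, PSME, PSMF or PSMG followed by a number and nothing else. This gave 48 of 19529 protein-coding genes, so that the partners PSMC3IP and PSME3IP1 were left out. Their sites on the strand of the gene numbered 1191 of 706883 in G20, 276 of 259337 in G35, 398 of 379718 in G45, 3670 of 2411483 in HuR replicate 1, 6218 of 4024972 in HuR replicate 2 and 5080 of 2857291 in Total.

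The proteasome is the protease that degrades ubiquitin-tagged proteins. Its core is a barrel of 4 stacked rings, with alpha subunits (PSMA) outside and beta subunits (PSMB), among them the catalytic ones, inside. The regulatory cap holds a ring of ATPases (PSMC) that unfold the substrate and non-ATPase subunits (PSMD) that capture ubiquitin chains and remove them. The PSME genes encode alternative caps, PSMF1 encodes an inhibitor, and PSMG1 to PSMG4 together with PSMD5, PSMD9 and PSMD10 encode chaperones of assembly. HuR, the product of ELAVL1, is an RNA-binding protein known for binding stretches rich in U in 3′UTRs and introns.

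PAR-CLIP feeds cells 4-thiouridine (4SU), crosslinks protein to RNA with long-wave UV, trims the RNA with RNase T1, pulls the protein down and sequences what is attached. A crosslinked 4SU is read as C in place of T, and such a T-to-C change is called a conversion. All cells were grown in 4SU and irradiated. The background libraries came from a line with doxycycline-inducible, FLAG-tagged GFP, a protein not known to bind RNA, cut from the gel near 20, 35 and 45 kDa (G20, G35 and G45). The 2 HuR replicates came from a line with inducible HuR, taken down with the same FLAG M2 antibody. Total is 1 library of RNase-trimmed, rRNA-depleted lysate without immunoprecipitation. The slices are parts of a gel and not separate cultures as far as the labels say, so p-values measure the spread between these libraries, which may be technical. The tagged proteins were expressed from a transgene, HuR beside the cell's own HuR. In lysate, fewer cells with a transcript and less RNA per cell cannot be told apart.

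Libraries held between 6187300 and 38644636 reads, and between 1529 and 61444 of them lay in proteasome genes, so G35 was the thinnest and HuR replicate 2 the deepest source. In G20, 66.4% of the reads assigned to protein-coding genes lay in SLCO5A1 and inflated that total. All 6 markers listed for HEK293 had exon reads in Total, from 4 for NEFM to 3191 for IGF2BP1. Of the markers of other cells reported here CD3E and HBB were at 0 in Total, and PTPRC, COL1A1 and ALB had 3, 24 and 41 exon reads. ELAVL1 coding reads per 1000000 coding reads (RPM, with the denominator named where it differs) were 428, 327 and 618 in the slices, 175 and 1182 in the HuR replicates and 217 in Total, so the replicates fell on both sides of the slices.

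The sites with the most reads differed between the kinds of library, and their sequences are printed first because the later values refer to them. All positions are GRCh37 (hg19). Capitals mark runs of at least 4 T, with T standing for U. For sites longer than 30 bases, the 30-base window with the most T is shown with the coordinates of that window. The first set are sites found in all 3 background slices.
PSMD14, intron 10, chr2:162258214-162258234, plus strand: tgaaattgaattctctgtgaa
PSMD1, intron 1, chr2:231923199-231923219, plus strand: gtggtggtcggacatcgtgaa
PSMA3, intron 2, chr14:58714916-58714932, plus strand: gtcacatgttcgattca
PSMB6, exon 4, coding, chr17:4701054-4701083, plus strand: acctgatggcgggaatcatcatcgcaggct
PSMD12, intron 1, chr17:65357051-65357080, minus strand: gaagattgggagaaaaaagggggatgattt

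None of these 5 holds a run of 4 T in the bases shown. The PSMD1 site is given as in G35, and in HuR replicate 1 its reads reached further upstream, over a run of T.
PSMD1, intron 1, HuR replicate 1, chr2:231923184-231923213, plus strand: acTTTTTTTcttactgtggtggtcggacat

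The second set holds 2 of the leading sites of HuR replicate 2, both in a 3′UTR.
PSMD11, exon 14, 3′UTR, chr17:30809219-30809248, plus strand: TTTTaTTTTcctctccaaaatcaggTTTTT
PSMD11, exon 14, 3′UTR, chr17:30808829-30808858, plus strand: TTTTTTTTTTaaTTTTctttgttgggTTTT

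The third set are sites present in both HuR replicates that touch no background site, ordered by the smaller of their shares of the library.
PSMA2, exon 8, 3′UTR, chr7:42957078-42957107, minus strand: TTTTgTTTTgcagacTTTTTgcatacttat
PSMD12, intron 1, chr17:65357969-65357998, minus strand: TTTTTTTTTagatacagggatctcaaactc
PSME3, exon 11, 3′UTR, chr17:40994833-40994859, plus strand: ctcTTTTattctaccacggctggagag
PSMB2, exon 6, 3′UTR, chr1:36067262-36067291, minus strand: ttaatatcatatacagataggTTTTTgttt
PSMD12, exon 11, 3′UTR, chr17:65336025-65336053, minus strand: aacactggataacctaaTTTTTTTTaatg
PSMD12, intron 3, chr17:65352769-65352798, minus strand: tattctcaTTTTatttagtcatatcccttt

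Each of these windows holds at least 1 run of 4 T. The fourth set are the 3 sites with the most reads in Total.
PSMD11, exon 1, coding, chr17:30771601-30771630, plus strand: ggaggcctccatcgacatcctccactccat
PSMD3, exon 10, coding, chr17:38152488-38152517, plus strand: tccaatccaaggagatgattgacatctatt
PSMA2, exon 8, 3′UTR, chr7:42957020-42957043, minus strand: acacttataaatcctaataaactg

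The PSMD14 site, in an intron of the subunit that cleaves ubiquitin chains from substrates, had 129 reads in G20, 183 in G35, 220 in G45, 10 in HuR replicate 1, 302 in HuR replicate 2 and 3 in Total. In RPM of all library reads, G35 with 29.6 and G45 with 29.2 stood above the HuR replicates with 1.05 and 9.40, and G20 with 3.34 lay between the latter. The site carried 198, 183 and 190 conversions per 100 reads in G20, G35 and G45, close to 2 in each read, which is the most that the read filter allowed. The rate was also high elsewhere, with 160 and 196 in the HuR replicates and 200 in Total, the latter on 3 reads. Its source was not tested. It lies 6510 bases from the nearest exon.

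The PSMD1 site, in an intron of the scaffold subunit of the cap, had 49, 90 and 185 reads in the slices, 827 in HuR replicate 1, 50 in HuR replicate 2 and 11 in Total. Replicate 1 reached 86.8 RPM and replicate 2 only 1.56, so the 2 HuR libraries lay above and within the range of the slices, 1.27 to 24.5. The PSMA3 site, in an intron of an alpha subunit, had 43, 32 and 94 reads in the slices, 103 and 73 in the HuR replicates and 0 in Total. There the conversions equalled the reads in all 3 slices and in HuR replicate 2, while HuR replicate 1 had 36.9 conversions per 100 reads. A T-to-C change present at the same base in every read need not come from a crosslink, and its source was not tested.

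The longer PSMD11 site of the second set, 179 bases of the 3′UTR of a cap subunit, had 17, 0 and 30 reads in the slices and 48 and 428 in the HuR replicates. The shorter one had 0, 13 and 3 reads in the slices, 38 and 701 in the HuR replicates and 115 in Total.

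The 2 other sites of the first set were smaller. The PSMB6 coding site, from a catalytic beta subunit, had 25, 4 and 6 reads in the slices, 0 and 7 in the HuR replicates and 31 in Total. The PSMD12 intron site had 19, 11 and 14 reads in the slices, none of them converted, and 0 and 37 in the HuR replicates with 111 conversions per 100 reads in replicate 2. G20 also held 2 large coding sites of PSMD8, a cap subunit, at chr19:38865553-38865601 in exon 1 with 86, 1 and 4 reads in the slices, 1 and 0 in the HuR replicates and 7 in Total, and at chr19:38866995-38867087 in exon 3 with 55, 0 and 13, then 1 and 20, and 330. In RPM the exon 1 site was highest in G20 among the slices, with 2.23 against 0.162 and 0.531, and the exon 3 site was highest in G45, with 1.72 against 1.42 in G20.

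**Figure D1:**
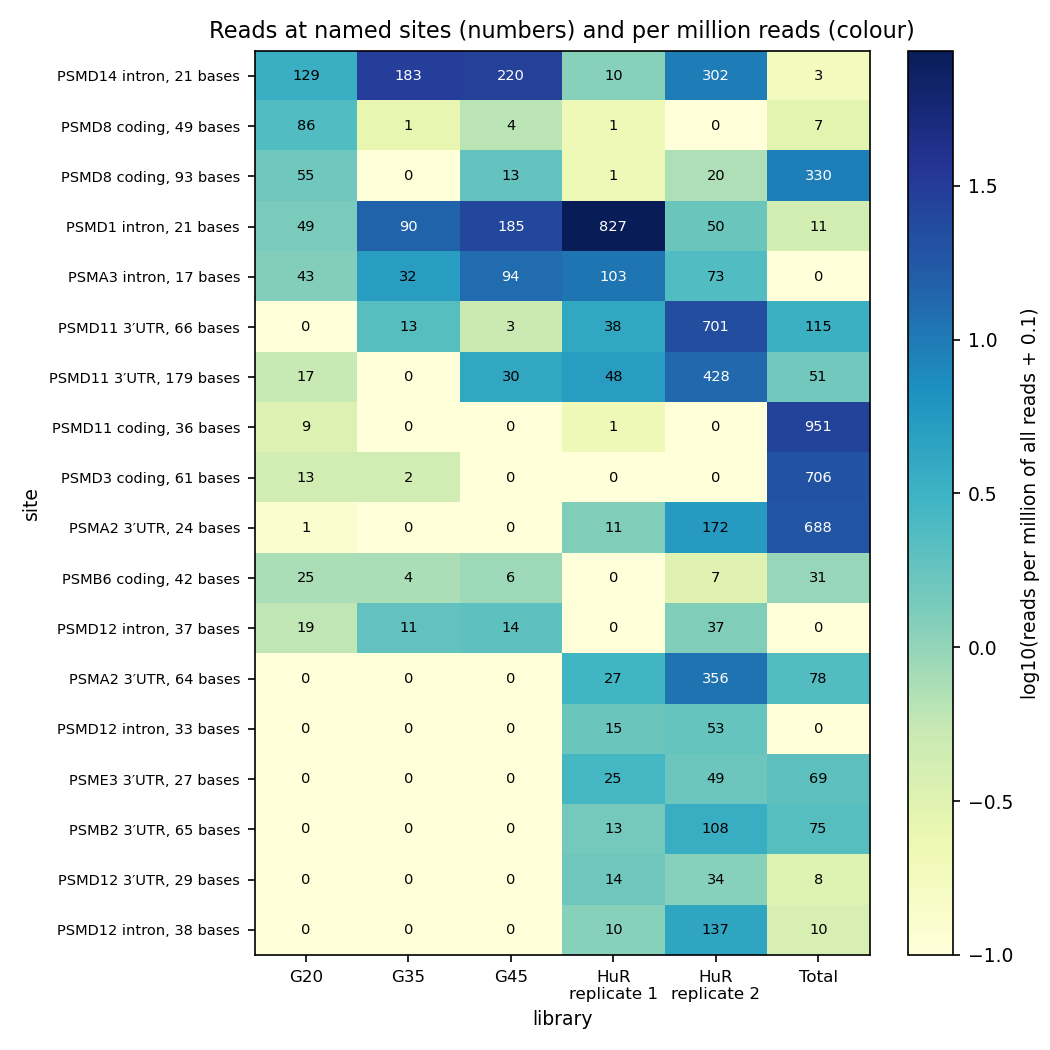
Reads at the named sites of proteasome genes in the 6 libraries. Rows are sites with their region and length, columns are libraries, the number in a cell is the read count and the colour is log10 of RPM of all library reads plus 0.1. The PSMD14, PSMD1 and PSMA3 introns carry reads in every slice, the 6 lowest rows carry reads in both HuR replicates and 0 in the slices, and the PSMD11 and PSMD3 coding sites reach 951 and 706 reads in Total.

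Among the sites without background, the PSMA2 3′UTR site had 27 and 356 reads in the HuR replicates and 78 in Total, and the PSME3 3′UTR site had 25, 49 and 69. PSMA2 encodes an alpha subunit and PSME3 the nuclear activator PA28γ. The intron 1 site of PSMD12, a structural subunit of the cap, had 15 and 53 reads in the HuR replicates and 0 in Total. At all 6 of these sites each slice was at 0, and the floor that 3 reads give lies at 1.27 RPM of protein-coding reads in G35, the shallowest slice. The leading Total sites were the reverse: the PSMD11 coding site had 951 reads in Total, 9, 0 and 0 in the slices and 1 and 0 in the HuR replicates. Total had 7.68 conversions per 100 reads there, and 1.27 per 100 at the PSMD3 coding site with 706 reads.

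In Total the proteasome genes ranked high. Their median was 133 exon reads per kb of exon against 13.0 over 19463 protein-coding genes with an annotated coding or UTR length. The highest were PSMB3 with 991, PSMD3 with 816, PSMA7 with 736, PSMA2 with 611 and PSMC4 with 604 exon reads per kb. These are a beta subunit, a structural cap subunit, 2 alpha subunits and an ATPase, and in 1 library neighbours in this order cannot be tested. The constitutive beta ring had the highest median of any role with 412 and a range from 195 to 991, followed by the alpha ring with 166, the non-ATPase subunits with 159 and the ATPases with 142. Within the alpha ring the range ran from 0 for PSMA8, the testis form that replaces PSMA7, to 736.

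**Figure D2:**
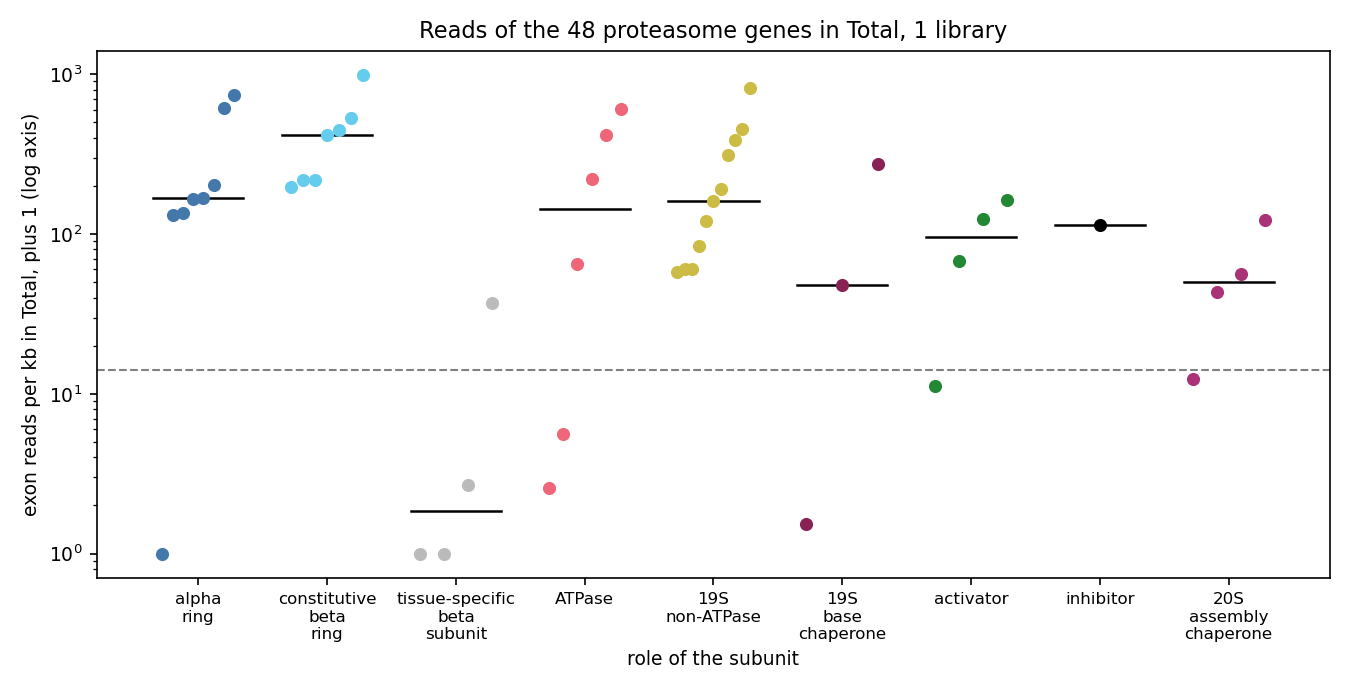
Exon reads per kb of exon in Total, plus 1, on a log axis, for the 48 proteasome genes by role of the product. Each point is a gene, black bars are medians of a role and the dashed line is the median over protein-coding genes, 13.0 before adding 1. The constitutive beta subunits lie at 195 and above before adding 1 and 3 of the 4 tissue-specific ones lie near the floor.

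Of the 4 tissue-specific beta subunits, 3 had few or no reads in Total, and PSMB10 had 36.0 exon reads per kb, above the median over protein-coding genes. PSMB8, an interferon-induced immunoproteasome subunit, had 0 reads in the 3 slices and in Total and 3 and 8 in the HuR replicates. PSMB11, the thymus subunit, had 9 reads in HuR replicate 2 and 0 in the 5 other libraries. PSMB9, also of the immunoproteasome, had between 0 and 5 reads in every library. PSMB10, the third immunoproteasome subunit, had 12, 0 and 5 reads in the slices, 16 and 6 in the HuR replicates and 46 in Total. For PSMB8 and PSMB11 the count of 0 in Total allows up to 0.302 RPM of protein-coding reads, and intervals and floors here cover counting error only.

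The assembly chaperones of the cap were unequal. PSMD10, known as gankyrin, had 272 exon reads per kb in Total, PSMD9 had 47.2 and PSMD5 had 0.540. Reads of PSMD10 were 16, 6 and 3 in the slices and 27 and 877 in the HuR replicates, those of PSMD9 were 53, 32 and 38 and then 231 and 1079, and those of PSMD5 were 1, 0 and 0 and then 11 and 44. Of the core chaperones, PSMG1 had 91, 32 and 18 reads in the slices and 72 and 1502 in the HuR replicates. PSMG2, its partner, had 44, 15 and 12 and then 172 and 1896. PSMG3 and PSMG4, which form the other pair, had 18, 0 and 2 and then 13 and 63, and 125, 25 and 74 and then 97 and 801.

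Of the activators, PSME1 and PSME2, the interferon-responsive PA28 subunits, had 152 and 35 reads in Total but few under immunoprecipitation: PSME1 had 24, 6 and 0 in the slices and 0 and 7 in the HuR replicates, and PSME2 had 8, 1 and 0 and then 5 and 15. PSME3 had 116, 30 and 41 in the slices and 160 and 917 in the HuR replicates. PSME4, which encodes PA200, had 79, 43 and 67 and then 503 and 4821. The inhibitor PSMF1 had 198, 72 and 41 in the slices, 268 and 2054 in the HuR replicates and 1688 in Total. All genes but PSMB8 and PSMB11 had at least 1 read in Total, and all 48 had at least 1 in HuR replicate 2.

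Where in the genes the reads lay separated the kinds of library most plainly. Coding sequence held 52.6% of the proteasome reads in G20 (95% Wilson interval 51.1 to 54.0), 16.5% in G35 and 18.3% in G45, but 2.37% in HuR replicate 1 (2.05 to 2.74) and 2.19% in replicate 2, and 42.7% in Total. The mean over the slices was 29.1% ± 20.3 (SD, n = 3) and over the HuR replicates 2.28% ± 0.128 (SD, n = 2), without overlap. Introns held 30.3%, 67.5% and 64.2% in the slices, 83.2% and 80.3% in the HuR replicates and 34.8% in Total. The 3′UTR share was 11.1%, 13.1% and 13.4% in the slices, 13.7% and 16.9% in the HuR replicates and 20.9% in Total.

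No region's values overlapped between HuR and the slices. The 3′UTR difference was smaller than the gap between the 2 HuR replicates, and with each site counted once it turned, with 7.34% in HuR and 13.8% in the slices. The coding and intron differences exceeded the SD of either group, but the exact two-sided permutation test of 2 against 3 libraries cannot give less than p = 0.20, which is what each of the 4 regions gave. With Benjamini-Hochberg adjustment over the 9 values tested this way the p was 0.257 for each region. Over all protein-coding genes the coding share was 2.61%, 10.5% and 7.71% in the slices and 8.42% and 1.85% in the HuR replicates, so there the groups did overlap. The intron share over all genes was 95.9%, 83.9% and 87.3% in the slices and 82.5% and 84.3% in the HuR replicates, also with overlap. The G20 values include the SLCO5A1 reads. With each site counted once, the groups did not overlap over all genes either. Coding sequence then held 13.2% to 24.6% of sites in the slices and 2.14% to 2.47% in the HuR replicates. Introns held 58.0% to 74.7% and 89.3% to 90.3%, so by sites the separation was not particular to proteasome genes.

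**Figure D3:**
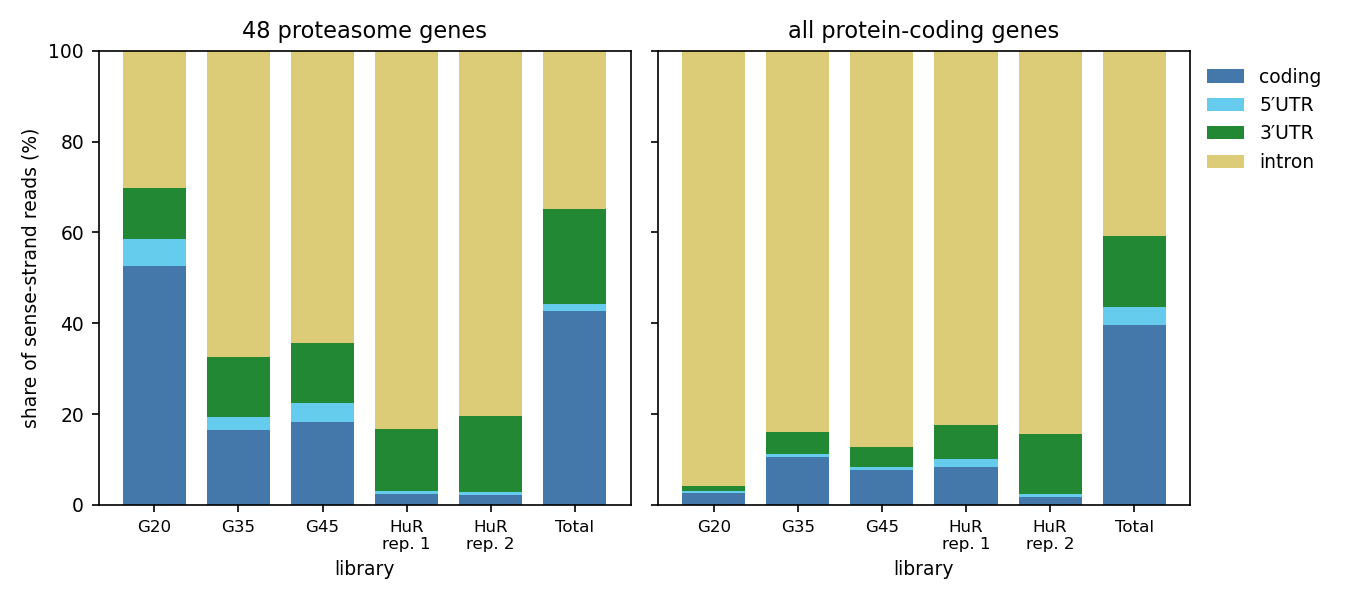
Share of sense-strand reads (%) by region in each of the 6 libraries, for the 48 proteasome genes and for all protein-coding genes. Colours are coding sequence, 5′UTR, 3′UTR and intron. Among proteasome genes the coding share is at least 16.5% in the slices and in Total and at most 2.37% in the HuR replicates.

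Per kb the same reads gave another view. Coding sequence of the proteasome genes held 42.3, 4.58 and 6.65 reads per kb in G20, G35 and G45, and their introns 1.05, 0.806 and 1.00. In HuR replicate 1 the 3′UTRs held 17.4 reads per kb against 3.18 in coding sequence and 4.80 in introns. In HuR replicate 2 the order was the same for the 3′UTRs, with 179 against 24.4 and 38.5, and in Total coding sequence led with 251 against 117 in 3′UTRs and 8.80 in introns. Introns amount to 1280 kb of these genes and 3′UTRs to 58.0 kb. Introns thus held most of their HuR reads in number, while their 3′UTRs were the most densely covered region in both HuR replicates. Over all protein-coding genes coding sequence was densest in HuR replicate 1, with 9.94 reads per kb against 7.67 in 3′UTRs and 2.80 in introns. In replicate 2 the 3′UTRs led there too, with 72.1 against 11.4 in coding sequence and 14.9 in introns.

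The level of the whole set depended on what it was divided by. In RPM of reads in protein-coding genes the set had 222, 648 and 720 in the slices, 1780 and 2839 in the HuR replicates and 3265 in Total. Divided by coding and UTR reads alone, the exonic reads of the set were 3787, 1308 and 2027 RPM in the slices, 1710 and 3566 in the HuR replicates and 3596 in Total, so HuR and background overlapped. Counted as sites, the set held between 2406 and 2650 sites per 1000000 protein-coding sites in all 6 libraries. On the exonic scale, added after the data were seen, and on the site scale the exact two-sided permutation p of HuR against the slices was 1.00.

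Background reached many of the HuR sites. Of the proteasome sites of HuR replicate 1, 13.2% (12.1 to 14.3) shared at least 1 base on the same strand with a site of a slice, and of those of replicate 2, 11.8% (11.0 to 12.6). Those shares were 9.09% and 8.44% over all protein-coding genes. By region the proteasome shares were 66.7% and 63.1% in coding sequence, 34.6% and 33.4% in 3′UTRs and 8.79% and 7.63% in introns. In these genes most coding sites and few intronic sites of HuR thus overlapped background. Over all protein-coding genes the shares were lower, with 35.2% and 43.4% in coding sequence, so there most coding sites did not overlap. They were 21.9% and 19.9% in 3′UTRs and 7.10% and 6.55% in introns. By reads, 31.1% and 25.6% of the proteasome reads lay at overlapping sites, against 50.3% and 24.8% over all protein-coding genes, so in replicate 1 the comparison by reads ran opposite to that by sites. Without G20, the deepest slice, 6.43% and 5.45% of sites overlapped.

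The replicates and slices shared a part of their sites. Of the 1191 sites of G20, 39 in 24 genes, 3.27%, overlapped a site in both other slices, against 3.77% of the sites of all protein-coding genes. Coding sequence held 17 of the 39 and introns 13. Of the 6218 sites of HuR replicate 2, 1975 were also in replicate 1, 31.8%, and 1645 in 40 genes touched no background, 26.5%, against 24.8% and 21.2% over all protein-coding genes. Of these 1645 sites, 1515 were intronic, 114 lay in 3′UTRs, 12 in coding sequence and 4 in 5′UTRs. PSMD14 had 243, PSMD1 211 and PSME4 156 of them, and PSMB6, PSMC5 and PSMD2 had 1 each.

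Sequence composition went with region and library. HuR sites of proteasome genes held 36.1% and 37.1% T in replicates 1 and 2, the slices 22.6%, 30.03% and 32.4%, and Total 30.2%. A run of 5 T, searched as TTTTT on the sense strand of the site, was in 15.9% and 22.1% of HuR sites, in 5.21%, 13.4% and 20.4% of slice sites and in 9.47% of Total sites. Over all protein-coding genes the shares were 13.8% and 22.3%, 4.95%, 12.7% and 16.3%, and 7.80%. ATTTA, the core of AU-rich elements, was in 7.85% and 8.70% of HuR sites, 2.43% to 6.78% of slice sites and 7.13% of Total sites. G45 thus overlapped the HuR replicates on TTTTT, and the median site was between 23 and 28 bases long in all 6 libraries.

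Reads were then summed per gene and HuR was tested against the slices with edgeR's quasi-likelihood test over all protein-coding genes. Of the 48, 41 passed the filter on low counts. In HuR 2 were lower and 0 were higher at an adjusted p under 0.05, beside 2.19% lower and 0.235% higher among the 13633 genes tested. At an unadjusted p under 0.05, 7 were lower and 5 higher, against 14.9% and 11.2% of all genes. The median log2 fold change of the 41 was 0.19, that of all genes -0.07, and 19 were negative and 22 positive.

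The 2 genes called lower were PSMC3, an ATPase of the ring, and PSMD2, the second scaffold of the cap. PSMC3 (chr11:47440320-47448024) had 139, 17 and 45 reads in G20, G35 and G45, 13 and 52 in the HuR replicates and 717 in Total. Scaled to the effective library sizes of the fit, that was 34.0, 7.16 and 16.9 RPM against 1.43 and 1.07, with every slice above both replicates. Its log2 fold change was -3.97 with SE 0.96, and edgeR gave an adjusted p of 0.0395. Of its slice reads 100, 6 and 4 were coding and 34, 7 and 41 lay in the 5′UTR, and of its HuR reads 9 and 37 were intronic.

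PSMD2 (chr3:184016986-184026838) had 119, 21 and 33 reads in the slices, 6 and 76 in the HuR replicates and 185 in Total. Scaled, the slices had 29.1, 8.84 and 12.4 RPM and the replicates 0.658 and 1.56, again without overlap. Its log2 fold change was -3.87 with SE 0.97, with an adjusted p of 0.0432 in edgeR. Both calls were lost without G20, without HuR replicate 1 and without HuR replicate 2, with counts of 0 lower in each, while 4 members were lower without G35 and 6 without G45. Over all genes 0 were lower without G20 or either HuR replicate, 579 of 15376 without G35 and 636 of 15386 without G45, so the loss was not particular to these genes. Under DESeq2, 8 of 43 were lower and 2 higher (10.2% and 3.11% of all genes), and with each site counted once 10 of 37 were lower and 8 higher (20.2% and 20.4%).

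**Figure D4:**
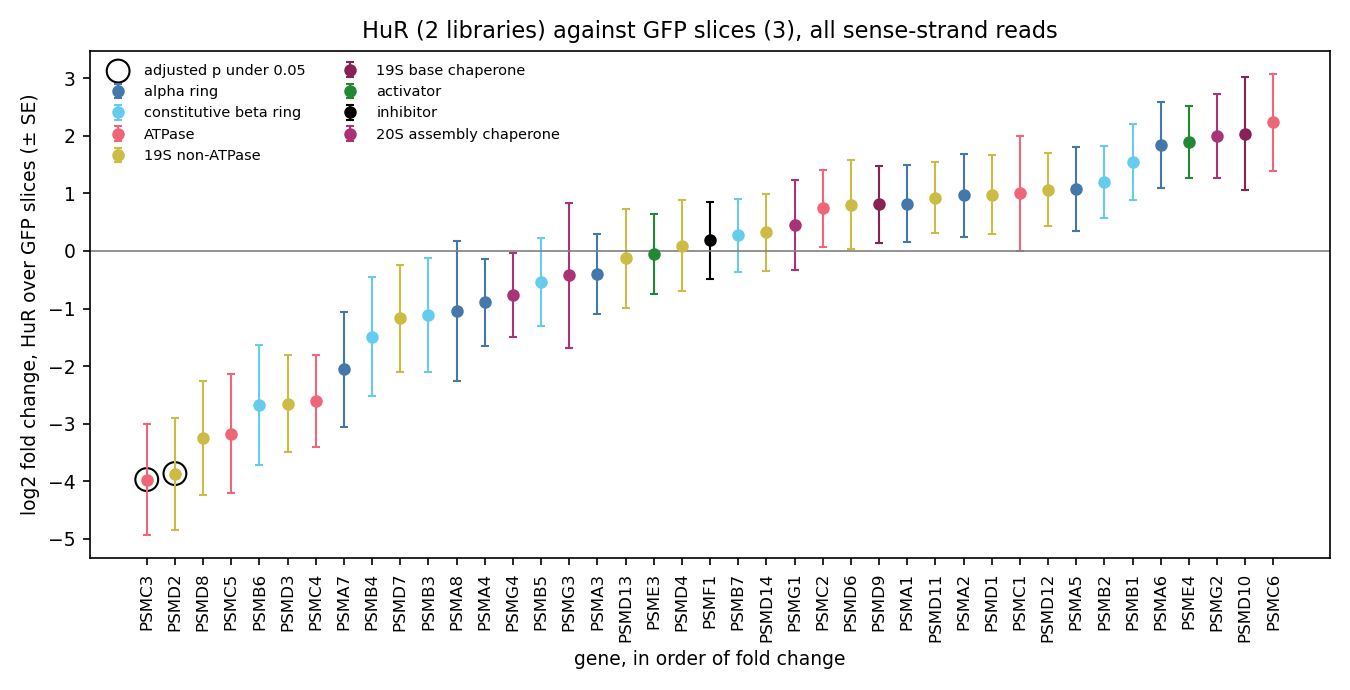
Log2 fold change of HuR (2 libraries) over the GFP slices (3 libraries) for the 41 proteasome genes tested, in order, on all sense-strand reads. Points are edgeR estimates coloured by role, bars are 1 SE, and circles mark an adjusted p under 0.05. PSMC3 at -3.97 and PSMD2 at -3.87 are circled, and estimates run up to 2.23 for PSMC6.

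Scaling mattered to direction. With the summed reads as library size the median of all genes moved by 1.75 on the log2 scale, PSMC3 and PSMD2 stood at -1.87 and -1.80, and no member was called lower while PSMC6, PSMD10 and PSMG2 were called higher, beside 454 higher and 7 lower of 13633 genes. PSMC3 and PSMD2 lay below the median of all genes under both scalings. With DESeq2's size factors in edgeR both had an adjusted p just above the threshold, 0.0527 and 0.0546. Over all 13 alternatives the adjusted p ran from 0.000219 to 0.444 for PSMC3 and from 0.000430 to 0.439 for PSMD2, and the log2 fold change stayed negative for both in each.

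Genes of the same complex lay far apart. In the ATPase ring the log2 fold change ran from -3.97 for PSMC3 to 2.23 for PSMC6, in the constitutive beta ring from -2.68 to 1.54, among the alpha subunits from -2.06 to 1.84 and among the non-ATPase subunits from -3.87 to 1.06. The core chaperones ran from -0.76 to 1.996, and the inhibitor PSMF1 was at 0.19 with SE 0.67. Of the roles with at least 2 tested members, the cap chaperones were the one without both signs, with PSMD9 at 0.81 and PSMD10 at 2.04, and neither passed the test. In the scaled reads, HuR lay below all slices for 9 of the 41 (22.0%) and above all for 11 (26.8%), against 19.8% and 24.0% of all genes tested.

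Fits of the reads in each region gave no call with edgeR. PSMC3 passed the filter on low counts in no region. PSMD2 passed it only in coding reads, with a log2 fold change of -1.64 and an adjusted p of 0.479 in edgeR. In 3′UTR reads 11 members were tested, in coding reads 30 and in intron reads 34, and edgeR called 0 in each, beside 0% higher and 0% lower of 4246 genes in 3′UTRs, 0.0369% higher and 0% lower of 5417 in coding sequence, and 0.382% higher and 3.99% lower of 11790 in introns. At an unadjusted p under 0.05 the counts were 0 higher and 0 lower in 3′UTRs, 1 and 0 in coding sequence, and 6 and 1 in introns, against 5.53% and 13.5% of all genes in 3′UTRs, 9.01% and 3.56% in coding sequence and 11.7% and 14.5% in introns.

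DESeq2 on 3′UTR reads called 0 members higher and 1 lower (0.574% and 5.44% of all genes). On coding reads it called 0 and 0 (1.75% and 0.0647%), and on intron reads 2 and 0 (4.65% and 10.3%). With each site counted once, edgeR called 0 and 0 in 3′UTRs (17.2% and 22.5%), 0 and 0 in coding sequence (4.55% and 0.441%), where 1 member was left to test, and 3 higher and 1 lower in introns (8.06% and 16.7%). The 2 that DESeq2 called higher in introns, PSMB1 with 2.16 and PSME4 with 1.83 on the log2 scale, were called with an adjusted p of 0.0204 and 0.0236, and the 1 lower in 3′UTRs was PSMD3. These 3 were named after their values were seen.

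The members at the 2 ends of the list differed in structure. The 7 with the lowest fold change were PSMC3, PSMD2, PSMD8, PSMC5, PSMB6, PSMD3 and PSMC4, with introns of 1.49 to 15.0 kb in total, median 6.20. The 7 with the highest were PSMB2, PSMB1, PSMA6, PSME4, PSMG2, PSMD10 and PSMC6, with 5.87 to 99.7 kb, median 37.3. Across the 41 genes Spearman's rho between intron length and log2 fold change was 0.563, and 0.275 over 13633 genes, a description across genes that share the 5 libraries. With the intron share of the gene's Total reads rho was 0.629 over 40 members and 0.269 over 12135 genes, and with exon length 0.203 and 0.185. The fold change sums the reads of all regions, and the region shares of these genes differed between HuR and the slices. The relation to introns cannot be told apart from that difference. The ends of the list were chosen after the values were seen.

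**Figure D5:**
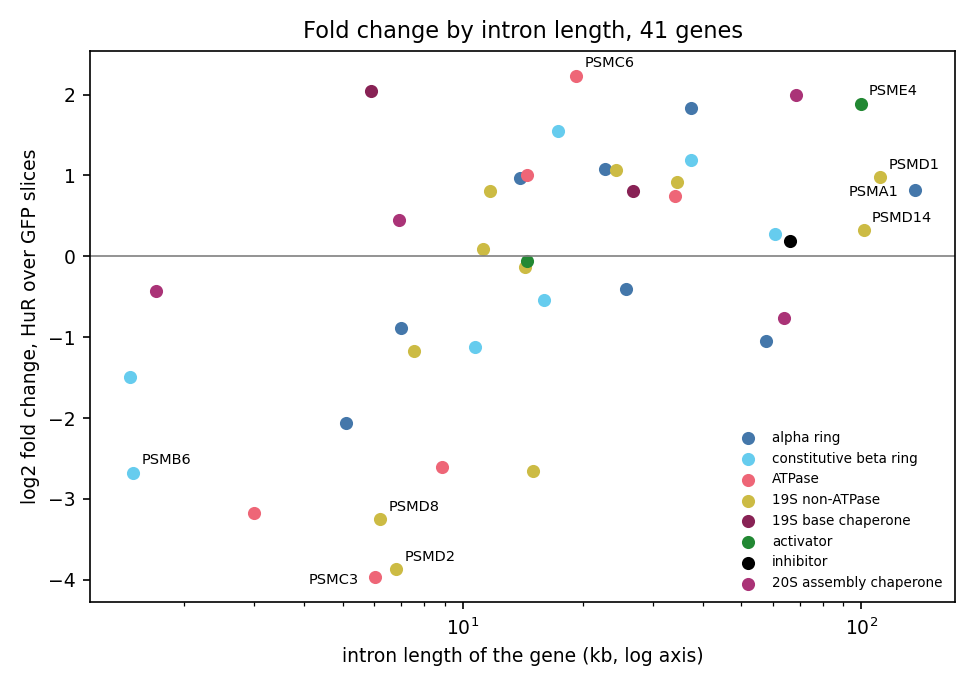
Log2 fold change of HuR over the GFP slices against the summed intron length of the gene in kb on a log axis, for the 41 proteasome genes tested. Each point is a gene coloured by role. The 7 lowest genes have introns of up to 15.0 kb in total, and Spearman's rho is 0.563.

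Against Total, a single library, ratios were formed for members with at least 20 Total reads in a region, each as RPM of the reads of that region. In 3′UTRs 3 of 29 members were at least 2-fold higher in both HuR replicates, beside 5.21% of all genes, and 15 were at most at 1/2 of Total in both, 51.7% beside 34.1%. The 3 were PSMB2, PSMD11 and PSMG1, named after their values were seen. PSMB2 3′UTR levels in RPM were 876 and 1166 in the replicates against 414 in Total, those of PSMD11 were 823 and 677 against 299, and those of PSMG1 were 32.9 and 105 against 12.9, which rests on 20 Total reads. The slices reached similar levels in places, with 231, 432 and 820 RPM for PSMB2, 355, 247 and 499 for PSMD11 and 21.5, 141 and 0 for PSMG1, so PSMG1 was higher in G35 than in either HuR replicate. PSMC3 had 308 3′UTR reads in Total and 0 in both HuR replicates, where 3 reads would mark the floor. The slices had 1, 0 and 0 such reads, so the low count was not particular to HuR.

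In introns 0 of 38 members were at least 2-fold above Total in both HuR replicates, beside 2.63%, and 12 were at most at 1/2, 31.6% beside 16.1%. In the slices, coding reads were at least 2-fold above Total in all 3 for 1 of 39 members, PSMD7 (beside 3.09%), and at most at 1/2 for 5 (beside 11.8%). PSMD7, named after its values were seen, encodes the partner of PSMD14, and its coding reads were 66, 8 and 7 in G20, G35 and G45 against 43 in Total. In slice 3′UTRs the counts were 0 and 11 of 29, beside 1.49% and 26.2%. With 1 Total library none of these ratios has a test.

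In proteasome genes conversions per read were higher in every immunoprecipitated library than in Total. Over all protein-coding genes that did not hold, since G20 lay below Total there. At proteasome sites there were 30.2 conversions per 100 reads in G20, 86.9 in G35, 77.1 in G45, 90.2 and 104 in the HuR replicates and 17.7 in Total, with an exact two-sided permutation p of 0.20 for HuR against the slices. G35 and HuR replicate 1 lay close together although the groups did not overlap. Over all protein-coding genes the values were 9.55, 54.4, 47.3, 62.0, 97.4 and 26.0, the first including the SLCO5A1 reads. With regions pooled, the proteasome sites thus had more per read in all libraries except Total. Without their site with the most reads the slices had 25.2, 73.8 and 63.2. Slice introns and 5′UTRs had more than over all genes, but slice 3′UTRs had fewer, with 27.3, 50.5 and 49.1 against 29.7, 61.0 and 52.5. Coding sequence had fewer in G20, with 16.8 against 18.8, and more in G35 and G45. Among sites of exactly 1 read, 26.2%, 66.7% and 52.7% were converted in the slices, 85.1% and 82.5% in the HuR replicates and 24.0% in Total. By region in G20, introns had 55.7 conversions per 100 reads against 16.8 in coding sequence, and in HuR replicate 2 the regions lay between 97.6 in coding sequence and 105 in 3′UTRs.

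Some background sites were converted in nearly every read at the same base. Of the sites with at least 5 reads, 49 of 108 in G35 and 26 of 101 in G45 had 1 conversion location and at least 95 conversions per 100 reads, as had 4 of 205 in G20, 3 of 187 in HuR replicate 1, 998 of 3633 in HuR replicate 2 and 1 of 1084 in Total. They held 24.5% of the proteasome reads in G35 and 14.5% in G45, against 14.6% and 10.5% over all protein-coding genes. In HuR replicates 1 and 2 they held 1.19% and 10.7%, against 5.23% and 12.6%. As a share of the sites with at least 5 reads they made up 1.95% in G20, 45.4% in G35 and 25.7% in G45, against 6.36%, 42.9% and 31.4%. The PSMA3 intron site belongs to them. Without such sites, an alternative added after seeing the data, 0 members and 0 of 13136 genes were called in either direction, and PSMC3 and PSMD2 had log2 fold changes of -3.63 and -4.11 with adjusted p of 0.103 and 0.0860 in edgeR.

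PARalyzer clusters, the stricter deposited sites, were fewer. Proteasome genes held 102, 73 and 59 clusters in the slices, 150 and 3338 in the HuR replicates and 734 in Total. Coding clusters made up 65.7%, 23.3% and 28.8% in the slices, 0% of the 150 and 2.94% of the 3338 in the HuR replicates and 26.6% in Total. Over all protein-coding genes coding clusters made up 43.7%, 13.9% and 11.9% in the slices and 1.10% and 1.53% in the HuR replicates. Of all T positions read in the proteasome clusters, 9.31%, 15.5% and 14.1% were converted in the slices. The shares were 12.4% and 10.1% in the HuR replicates and 3.24% in Total, so here G35 and G45 lay above both HuR replicates. Over all protein-coding genes G35 with 10.9% lay above both HuR replicates, with 9.81% and 10.2%, but G45 with 9.79% lay below both.

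Reads at the start of the genes also differed. The window was the first 100 bases downstream of the start site of the canonical transcript. It held 6.03% of the proteasome reads in G20 (5.36 to 6.77), 1.24% in G35 and 1.80% in G45. The HuR replicates had 0.230% and 0.202% in it, and Total had 4.32%. Over all protein-coding genes Total had 12.2% there and the slices 0.207% to 0.237%. The HuR replicates had 0.791% and 0.0868%, on both sides of the slices. As shares of sites, all genes gave 1.96%, 1.06% and 1.03% in the slices and 0.191% and 0.127% in the HuR replicates. Proteasome genes gave 4.11%, 2.90% and 2.76% against 0.327% and 0.354%, so by sites both sets separated without overlap.

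Of 27 other genes of the pathway, all were tested and 2 were called lower in HuR, beside 2.19% of all genes. No gene was called lower without G20 or either HuR replicate, so both calls are lost there. They were ADRM1, the ubiquitin receptor that docks on PSMD1, with a log2 fold change of -4.83 (SE 1.21), and PAAF1, a chaperone of the ATPase ring, with -4.42 (SE 1.12), with adjusted p of 0.0426 and 0.0447 in edgeR. ADRM1 had 353, 9 and 20 reads in the slices and 13 and 44 in the HuR replicates, and PAAF1 had 738, 2401 and 2236 and then 131 and 2383. No gene of the list was called higher, and the median log2 fold change of the list was 0.36. SEM1, the small subunit of the cap without a PSM name, had 1.72 with SE 0.66, and NFE2L1, the transcription factor that drives subunit genes, had -2.66 with SE 0.85, neither past the threshold.

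Only uniquely mapping reads were kept, so reads shared with a near-identical copy would be missing, and neither the identity of the copies nor such reads were measured. The annotation holds 44 pseudogenes named after 17 of the members, and 32 of them had reads. Their reads came to between 0.0488% and 0.851% of those of the members in the 6 libraries, with 250 reads in Total. PSMC1 has 13 pseudogenes, and this ATPase had 1.59 exon reads per kb in Total, the lowest of its ring, where PSMC4 had 604. PSMC6, with 4.58, has none with such a name, and PSMB3 and PSMA2, with 991 and 611, have 2 and 3. Values of PSMC1, PSME2, PSMA6 and the other parents are uncertain for this reason, and the part of the copies in them was not tested.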

How the data were processed

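PAR-CLIP libraries of HEK293 cells were compared: 3 slices of a FLAG-GFP control, 2 HuR replicates and 1 Total. The authors removed adapters, aligned the reads to hg19 with bowtie, kept uniquely mapping reads whose mismatches were T-to-C changes, and grouped overlapping reads with PARalyzer. The deposited tables list sites with whole-number counts of reads, conversion locations and conversion events, not normalized. Removal of PCR duplicates is not stated, so counts are not independent molecules. Versions of bowtie and PARalyzer are not given in the sources used here.

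Sites were assigned by midpoint and strand to GENCODE release 44 on GRCh37, in the order coding, 3′UTR, 5′UTR, noncoding exon, intron. Readthrough genes and sites equally in several genes were left out. All 16833 member sites matched GRCh37. Exon and intron numbers are those of the canonical transcript. Reads per gene were tested with edgeR 4.0.16 (TMM, filterByExpr, quasi-likelihood, Benjamini-Hochberg over all genes tested, threshold 0.05) in R 4.3.3, checked on simulated data. DESeq2 1.42.0 was an alternative. SE is the absolute log2 fold change over the square root of F. Python 3.11.15, numpy 2.4.6, pandas 2.3.3, scipy 1.17.1 and pysam 0.24.0 were used. Depths of 6187300 to 38644636 reads set the floors, each 3 reads.

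The genes named were members past the threshold (up to 6 a direction), the 5 highest and those at 0 in Total, the leading sites of each library and shared set, and all members of roles with at most 4 genes. Members, lists and tests were chosen with earlier results of these data known. The exonic scaling and the removal of nearly fully converted sites were added after the data were seen. One leading site and 1 marker are not reported here.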

Additional observations from a re-analysis of the deposited data

How the results depend on the processing

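Under the alternatives 130 values kept their side of the threshold or stayed within the spread and 22 moved. Another 14 newly passed the threshold or grew in count, and 7 lost it. These values are counts, shares and rates, which cannot change sign. Fold changes of some members did, running from -2.17 to 0.87 for PSMA4 and from -0.69 to 1.76 for PSMD14. Those of PSMC3 and PSMD2 stayed negative. On all reads the count of members higher in HuR was 0 and became 3 with summed reads as library size, 2 with DESeq2 and 8 with each site counted once. The count lower in HuR was 2 and became 0 with DESeq2 size factors, with summed reads, with sites of 5 or more reads and without nearly fully converted sites, 5 without a filter, 8 with DESeq2 and 10 with each site counted once, and it ran from 0 to 6 when 1 library was left out, at 0 without G20 or either HuR replicate, 4 without G35 and 6 without G45. Over all genes 0 were lower with DESeq2 size factors, with sites of 5 or more reads, without nearly fully converted sites and without G20 or either HuR replicate, and 7 of 13633 with summed reads, so these losses hold for nearly all genes. Without a filter 798 of 18541 genes were lower. In 3′UTRs DESeq2 called 1 member lower. In introns the count higher was 0 and became 2 without a filter, 2 with DESeq2 and 3 with each site counted once (1 lower), and 0 to 2 when 1 library was left out, the 2 without HuR replicate 1. With each site counted once and with sites of 5 or more reads the HuR shares were 3.63% and 1.17% in coding sequence, 7.34% and 21.6% in 3′UTRs and 88.1% and 76.8% in introns, and the slice 3′UTR share was 13.8% with each site counted once, so that in 3′UTRs the direction of HuR against the slices turned under that setting. RPM of protein-coding reads was 530 in the slices and 2310 in HuR, and became 209 and 1344 with all reads of the library in the denominator, 1384 in HuR without the 10 largest sites, and in the slices 2505 on sites and 2374 on exonic reads. Overlap with background was 11.0% and 9.71% (HuR replicates 1 and 2) where background covers at least 1/2 of the site, 3.98% and 3.57% with background sites of 5 or more reads, and ran from 6.43% to 11.8% and from 5.45% to 10.4% when 1 slice was left out. The causes of these changes were not tested. On all reads the settings left between 33 and 48 members to test, against 41 in the main fit. No paired analysis was possible because only the HuR libraries carry replicate numbers. Of the 48 genes 7 were too low to be tested.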
